A study of Homo sapiens with 3 samples.

Results

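The ZNF genes are human genes named for the zinc finger, and 251 of them are described here across 3 arrays of 1 cell line. A gene was taken where the platform's symbol was ZNF followed by a number alone, on probe sets that carry a single symbol. The brightest such probe set, by its average over the 3 arrays, stood for the gene, and members were chosen by that average, which had to reach 5.28 on the log2 scale, the median of all 49293 probe set means. This left 251 of 451 measured ZNF genes, among 10917 genes kept of 18132 measured, while 200 ZNF genes fell below the filter and 9 more sat only on probe sets with several symbols. Since the measured signals chose the members, their level is a description, and a gene that is high on some arrays and low on others could pass through the high ones.

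The cells were KYSE180, which come from a human squamous cell carcinoma of the oesophagus, with 1 array each for control cells, cells transfected with the LZRS_HOTAIR vector by Polyfect, and cells given 100 pmol of mixed Stealth siRNAs against HOTAIR with Lipofectamine2000. RNA was taken 48 h after the vector or siRNA was given, while no time is stated for the control cells, and the design asks how gene expression differs when HOTAIR, a long non-coding RNA that binds chromatin-modifying complexes, is supplied or targeted. The control is labelled only as control, so whether it had received a negative-control siRNA, a reagent or neither is unknown, and the reagent and the kind of nucleic acid cannot be told apart from the HOTAIR treatment. The source name of the siRNA sample speaks of a HOTAIR cell line, whereas its title and cell line field give KYSE180. HOTAIR itself has 0 probe sets in the annotation and its level was not analysed here. Each group being 1 array, the differences lack a replicate check and carry no p-value, and precision is limited by the number of arrays. The only measured error is the SD between probe sets of a gene. All 6 measured squamous markers, KRT5, KRT14, SOX2, DSG3, PERP and SFN, had mean log2 signals between 10.48 and 12.87. Of 9 markers of other cell types only CDX2, at 7.20, passed the filter, and the others lay between 2.68 and 4.94.

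Most ZNF proteins carry tandem C2H2 zinc fingers, each of which holds a zinc ion and reads a short stretch of DNA. Many also carry a KRAB domain, which recruits TRIM28 and, through it, SETDB1 and HP1 proteins to silence transposable elements and imprinted genes. KRAB zinc finger genes lie in tandem clusters that arose by duplication, so related members can share sequence and, on arrays, probes. Other ZNF proteins have unrelated jobs in promoter activation, ribosome biology, chromosome alignment or epithelial differentiation.

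The members were of moderate signal. On the control array they ran from 3.72 to 11.64 with a median of 6.60 (log2), on the vector array from 4.96 to 11.55 with a median of 7.12, and on the siRNA array from 5.04 to 11.66 with a median of 7.0. The medians of all genes kept were higher, at 7.81, 8.0 and 7.97 on the same arrays. On the control array 34 members lay below that array's own median, against 6 on each of the others. The brightest member was ZNF207, a kinetochore and spindle protein that binds BUB3, at 11.64 in control, 11.55 with the vector and 11.66 with the siRNA. ZNF706 followed at 11.43, 11.01 and 11.42, and ZNF219 at 11.41, 10.85 and 11.16. On these probe sets the 3 stayed within 2-fold of control, while another probe set of ZNF706 was 1.07 higher in siRNA cells. Next by mean signal were ZNF511 and ZNF146, whose signals differed more between arrays and are given further on. Just inside the filter were ZNF28 (mean 5.29), ZNF333 (5.32), ZNF202 (5.34), ZNF155 (5.36) and ZNF575 (5.37). Just outside were ZNF136 (5.26), ZNF573 (5.26), ZNF484 (5.24), ZNF792 (5.23) and ZNF501 (5.20). ZNF136 read 3.62 in control, 6.19 with the vector and 5.98 with the siRNA, so genes with a low control signal also lay just under the threshold.

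In the vector cells, 68 of the 251 members (27.1%) were at least 2-fold higher than in control and 2 (0.797%) were at least 2-fold lower. Of all 10917 genes kept, 15.2% were at least 2-fold higher and 2.05% at least 2-fold lower in the same comparison. The median member difference was 0.15 on the log2 scale, with quartiles of -0.34 and 1.18, and the median of all genes kept was -0.18. After repeated quantile normalization the member median turned to -0.012, with that of all genes kept at -0.29. In the siRNA cells, 74 members (29.5%) were at least 2-fold higher than in control and 3 (1.20%) lower, beside 14.9% and 1.85% of all genes kept. Their median difference was 0.20, with quartiles of -0.27 and 1.19, beside -0.17 over all genes kept. Signals at least 4-fold above control were read in 33 members for the vector and 28 for the siRNA. The counts over all 10917 genes kept were 572 and 411. These comparisons share the control array, so a low or high reading on that array enters both, and the direction they have in common cannot be told apart from a departure of the control array. In bulk RNA, fewer cells of a type and less RNA per cell cannot be told apart either.

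Between vector and siRNA cells, a comparison without the control array, 7 members (2.79%) had a signal at least 2-fold higher with the vector, and 0 were that much lower. Over all genes kept, 1.73% were higher and 1.85% lower, so the members' shares were near the background. The median member difference was -0.027 and the differences ran from -0.86 to 1.83.

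**Figure D1:**
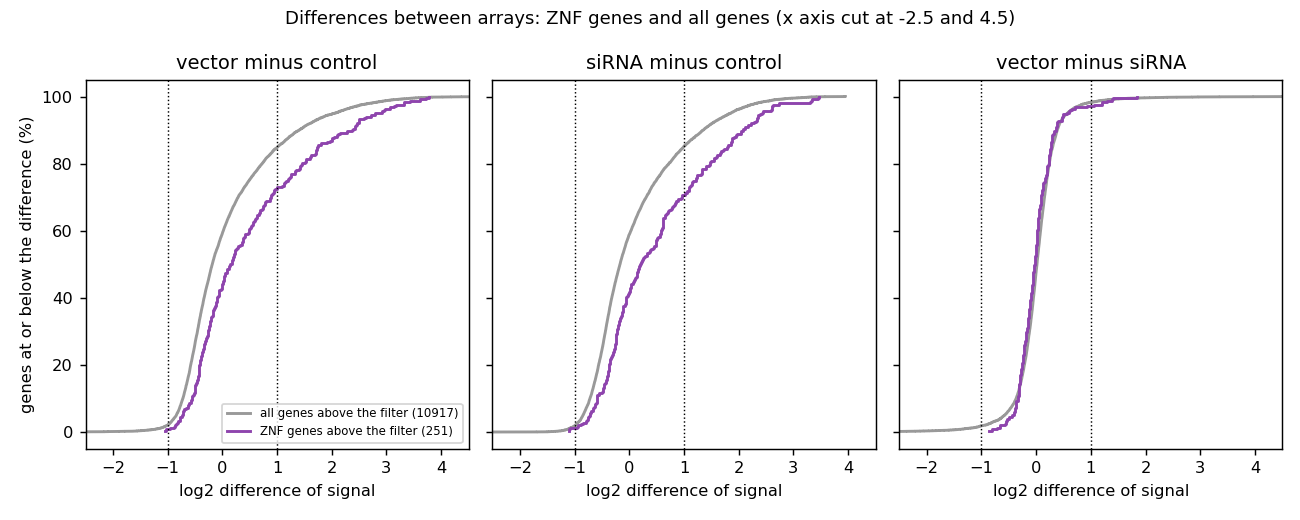
Cumulative share of genes (%) against the log2 difference of signal for each pair of arrays, with the 251 ZNF genes in purple, the 10917 genes kept in grey and dotted lines at 2-fold. Against control the purple line lies to the right of the grey one in both left panels, with medians of 0.15 and 0.20 beside -0.18 and -0.17 (the 0.15 turns to -0.012 after repeated quantile normalization), and in vector minus siRNA the lines nearly coincide.

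The filter used the arrays that were then compared, so the counts were also taken without it. Among all 451 measured ZNF genes, 94 (20.8%) exceeded control by 2-fold or more in vector cells and 2 were that far below, beside 10.1% and 1.45% of all genes measured. In siRNA cells 96 (21.3%) were higher and 4 lower, beside 9.81% and 1.19%. In vector minus siRNA 9 (2.0%) were higher and 0 lower, beside 1.37% and 1.46%. The median differences of the 451 from control were smaller than those of the members, at 0.036 for the vector and 0.074 for the siRNA. The medians of all genes measured were -0.22 and -0.19. The filter was also set only on the array outside each comparison. Against control that is the other treated array, so a gene low on the control array alone could still pass. The shares against control therefore cannot tell how far the choice of members raised the counts. In vector cells 78 of 259 ZNF genes (30.1%) were higher than control and 2 lower, beside 15.6% and 2.13% of all genes. For the siRNA cells 87 of 262 (33.2%) were higher and 3 lower, beside 15.5% and 1.86%. On that footing only 2 of 223 (0.897%) were higher and 0 lower in vector than in siRNA cells, beside 1.25% and 1.75% of all genes, because 5 of the 7 lay below the median of the control array.

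The difference from control did not sit in dim members alone. With the members put in 4 bins of near-equal size by mean signal, from dim to bright, 33.3%, 22.6%, 23.8% and 28.6% of members were at least 2-fold higher in vector cells, and 11.6%, 15.5%, 18.4% and 15.5% of all genes kept in the same signal ranges. For the siRNA cells the shares were 34.9%, 24.2%, 25.4% and 33.3% of members beside 11.2%, 15.0%, 17.3% and 15.4%. Members on probe sets whose names end in _x_at or _s_at, which can hold probes shared with other transcripts, numbered 70. Of these 31.4% were higher in vector and 32.9% in siRNA cells, against 25.4% and 28.2% of the other 181 members. Over all genes kept the same split gave 17.4% and 17.3% against 14.1% and 13.5%, so this kind of probe set moved with the count, and its part in the result was not tested.

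In vector minus control the largest member difference was in ZNF181, a KRAB zinc finger gene, which read 3.72 in control, 7.50 with the vector and 7.02 with the siRNA. The control array alone was low, by 3.78 against the vector and 3.30 against the siRNA array (log2, 1 probe set). Its neighbour ZNF302, also of the KRAB type, read 5.27, 8.70 and 8.72, with differences of 3.43 and 3.45 and SDs between its 4 probe sets of 0.81 and 0.96. A further 2 probe sets carry the symbols of both genes, so their signals may not be independent. The brighter of these read 5.54 in control, 8.99 with the vector and 8.92 with the siRNA.

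ZNF711, an X-linked gene associated with intellectual disability, read 5.29 in control, 9.02 with the vector and 8.63 with the siRNA, with differences of 3.73 and 3.35 (SD 1.32 between 2 probe sets in each). ZNF700 read 3.92, 7.25 and 7.39, differences of 3.33 and 3.47 on 1 probe set, the latter the largest of the members in siRNA minus control. ZNF184 read 4.99, 7.78 and 8.31, differences of 2.79 and 3.32 on 1 probe set. In these 3 genes the control array was low and the vector and siRNA arrays lay within 0.53 of each other. ZNF84 had 4.31, 7.10 and 6.92, and ZNF350, whose KRAB protein binds BRCA1, had 3.80, 6.23 and 6.54. ZNF146, a protein made almost wholly of zinc fingers, was bright on every array at 8.44, 10.94 and 11.04, and its 3 probe sets lay close together, with differences of 2.50 and 2.60 and SDs of 0.10 and 0.06. That spread is between probe sets on the same RNA and holds no variation between cultures.

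**Figure D2:**
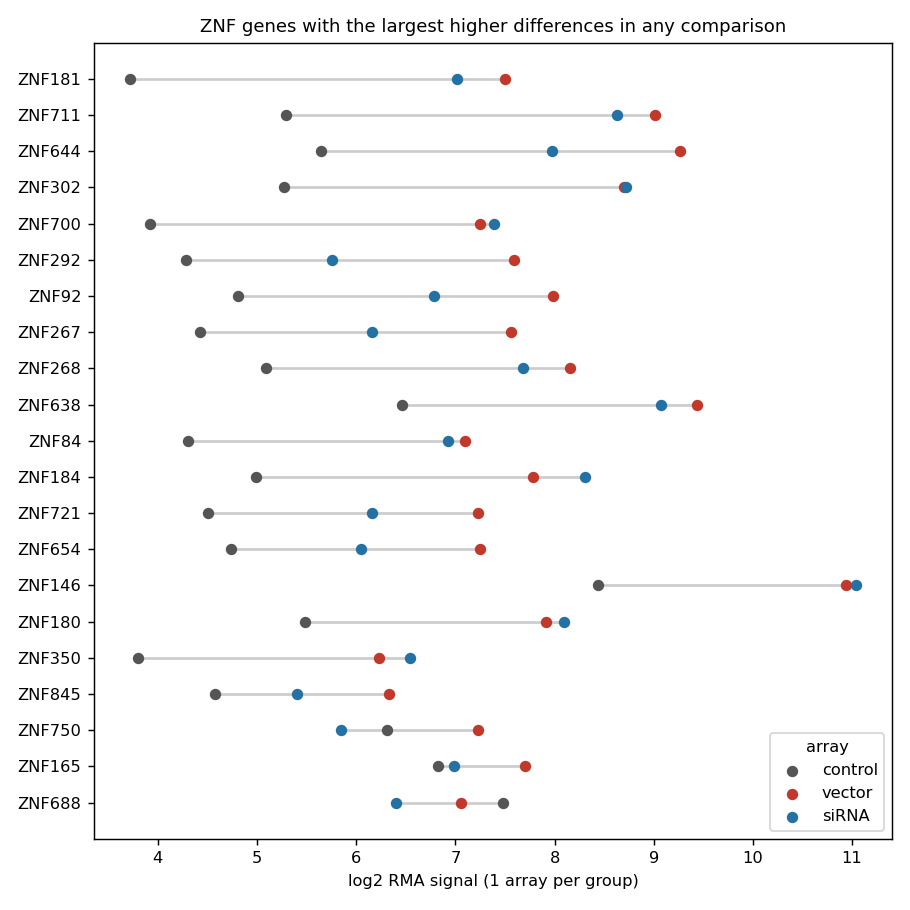
Log2 RMA signal on each of the 3 arrays for the members with the largest higher differences in any comparison, with grey lines from the lowest to the highest array. For most genes the control point stands alone on the left, as for ZNF181 at 3.72 against 7.50 and 7.02, while ZNF750 has its siRNA point lowest at 5.84.

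Members at least 2-fold lower than control numbered 2 in vector and 3 in siRNA cells, beside 2.05% and 1.85% of all genes kept. At 1.5-fold 22 and 27 were lower, and the share of all genes was not taken at that size. ZNF853 read 6.86 in control, 5.80 with the vector and 6.61 with the siRNA, 1.05 lower in vector cells on 1 probe set. ZNF503, a developmental corepressor of the same family as ZNF703, read 8.73, 7.70 and 8.37, with differences of -1.03 and -0.36 and SDs of 0.30 and 0.17 between 4 probe sets. In both genes the vector array was the lowest. ZNF511 read 11.10, 10.25 and 9.98, and ZNF593, a ribosome assembly factor, read 9.41, 8.63 and 8.30, each 1.11 lower in siRNA cells than in control. ZNF688 read 7.48, 7.05 and 6.40, which made it 1.07 lower in siRNA cells. These 3 genes were lowest on the siRNA array, and none of the 5 lower members stayed 2-fold apart under every scaling of the arrays.

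The 7 members that exceeded the siRNA array by 2-fold on the vector array are given in full because the control array does not enter that difference. ZNF292, a large DNA-binding protein mutated in some tumours, read 4.28 in control, 7.59 with the vector and 5.76 with the siRNA. Its vector minus siRNA difference of 1.83 was the largest of the members, and its 5 probe sets ranged from 0.92 to 1.83 (SD 0.37). ZNF644, which binds the histone methyltransferases EHMT1 and EHMT2, read 5.64, 9.26 and 7.97, a difference of 1.29 (SD 0.51, 7 probe sets). ZNF267 read 4.42, 7.56 and 6.16, a difference of 1.40 with an SD of 0.09 between 3 probe sets. In all 3 the siRNA array lay between control and vector.

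ZNF654 read 4.74, 7.25 and 6.05, a difference of 1.20 (SD 0.25, 2 probe sets). ZNF92, a KRAB zinc finger gene, read 4.81, 7.98 and 6.78, a difference of 1.19 on 1 probe set, and ZNF721 read 4.51, 7.23 and 6.16, a difference of 1.06 on 1 probe set. The exception in order was ZNF750, a factor of squamous epithelial differentiation that acts downstream of TP63 and is mutated in oesophageal squamous carcinoma. ZNF750 read 6.31 in control, 7.22 with the vector and 5.84 with the siRNA, so control lay in the middle, 0.92 below vector and 0.47 above siRNA. Its 4 probe sets gave vector minus siRNA differences between 1.33 and 1.39 (SD 0.03).

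At a stricter ordering, with the middle array at least 1.5-fold from each of the others, 9 members had the vector highest, the siRNA in the middle and the control lowest, beside 1.69% of all genes kept. They were the 6 named above other than ZNF750, with ZNF655, ZNF800 and ZNF845. No member had any of the 5 other orders at that size, in which between 0.0641% and 0.485% of all genes kept fell. The members furthest the other way were ZNF284 at 6.18, 6.37 and 7.23, ZNF853, and ZNF532 at 8.28, 8.05 and 8.76, with vector minus siRNA differences of -0.86, -0.81 and -0.72.

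**Figure D3:**
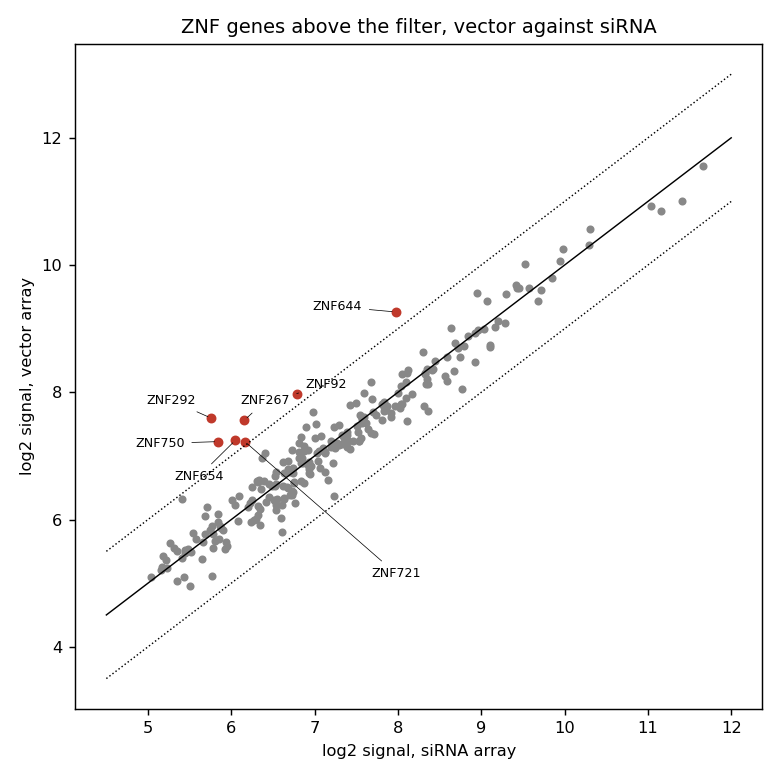
Log2 signal on the vector array against the siRNA array for the 251 members, with the line of equality and dotted lines at 2-fold. The 7 red points, ZNF292, ZNF267, ZNF750, ZNF644, ZNF654, ZNF92 and ZNF721, lie above the upper dotted line and no point lies below the lower one.

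Members were then read by role. The counts in each role list stand beside the 15.2% and 14.9% of all genes kept, and the 27.1% and 29.5% of the 251 members, that were at least 2-fold higher in vector and siRNA cells. The lists are short, so nothing particular to a list is read from them. Of 6 promoter activators, 1 (16.7%) was at least 2-fold higher in vector cells and 2 (33.3%) in siRNA cells, with median differences of 0.22 and 0.27. ZNF148, a GC-box binding factor, read 7.10 in control, 10.02 with the vector and 9.52 with the siRNA, differences of 2.92 and 2.42 with SDs of 0.58 and 0.54 between 9 probe sets. ZNF281, a GC-rich element binder, read 8.65, 9.43 and 9.68, while ZNF143, which binds the promoters of many housekeeping and small nuclear RNA genes, read 5.46, 5.97 and 6.08. ZNF410, which activates CHD4, read 9.76, 9.54 and 9.30. The 6 thus ran from a difference of 2.92 in ZNF148 to -0.36 in vector cells.

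Of 13 genes listed for corepressor binding 11 were kept, with 2 (18.2%) higher and 1 lower than control in vector cells and 2 (18.2%) higher in siRNA cells, and medians of 0.08 and 0.58. The higher pair was ZNF644 and ZNF131, the latter at 6.20, 8.29 and 8.05, and the lower gene was ZNF503. ZNF217, an amplified oncogene that binds CoREST and CtBP complexes, read 8.77, 9.64 and 9.43. ZNF703, the relative of ZNF503, read 9.29, 8.48 and 8.92, below control on both other arrays but less than 2-fold.

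Of 14 genes listed for transposon silencing, imprinting and heterochromatin, 7 were kept and 4 (57.1%) were at least 2-fold higher than control in each treatment, beside 15.2% and 14.9% of all genes kept, with medians of 1.53 and 1.14. The 7 genes under the filter are not in this count, and of these only ZNF10 was past 2-fold, by 1.14 in vector cells (0.99 in siRNA cells). On the control array ZNF350, ZNF224 and ZNF268 lay below that array's median of 5.27. They passed the filter through the treated arrays, so the share depends on the filter. ZNF268 read 5.09, 8.16 and 7.68, ZNF765 5.76, 7.45 and 6.90, and ZNF224, a transcriptional repressor, 4.86, 6.39 and 6.73, with ZNF350 the fourth. Probe sets of ZNF765 disagreed, with an SD of 1.43 between 5 of them in vector minus control. ZNF274, which brings SETDB1 to zinc finger gene clusters, read 8.28, 8.16 and 8.10, and ZNF445, a regulator of imprinting, read 7.03, 7.43 and 7.65, so both were within 2-fold on all arrays.

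Of 7 RNA and ribosome genes, 1 (14.3%) was higher in each treatment and ZNF593 was lower in siRNA cells, with medians of -0.32 and -0.59. ZNF638, an RNA-binding splicing regulator, read 6.46, 9.44 and 9.07, but the probe set used ends in _x_at, and its 3 probe sets without such an ending gave differences from control between 0.77 and 1.49 in vector and between 0.56 and 1.06 in siRNA cells. ZNF598, which marks collided ribosomes, read 7.79, 7.28 and 7.0, and ZNF622, a 60S maturation factor, read 10.05, 9.64 and 9.46. Of 5 genes listed for the spindle, SUMO and ubiquitin, 2 were measured and kept. ZNF207 was level, and ZNF451, a SUMO ligase, read 6.28, 8.77 and 8.68, with differences of 2.49 and 2.40 but an SD of 1.01 between 5 probe sets. Of 9 epithelial, stress and cancer genes 7 were kept, with 1 (14.3%) higher than control in vector cells and 2 (28.6%) in siRNA cells and medians of 0.63 and 0.51. They were ZNF292 in each and ZNF652, at 6.79, 7.56 and 8.11, in siRNA cells.

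KRAB proteins act through cofactors, and 32 of 34 listed cofactors were measured, all of them above the filter. In vector cells 4 were at least 2-fold higher than control and 0 lower, with a median difference of -0.11, and in siRNA cells 5 were higher and 0 lower, with a median of -0.03. TRIM28, the KRAB corepressor itself, read 8.36 in control, 7.64 with the vector and 7.45 with the siRNA, lower on both but within 2-fold. CBX3, an HP1 protein, read 10.91, 12.48 and 12.77, TASOR of the HUSH complex read 7.51, 9.43 and 9.31, and SMARCAD1, a chromatin remodeller, read 6.22, 8.44 and 8.82. The chromatin remodeller ATRX read 6.41, 9.32 and 8.69 with an SD of 1.49 between 8 probe sets, and CBX5, another HP1 protein, was past 2-fold only in siRNA cells at 8.48, 9.35 and 9.92. The shares, 4 and 5 of 32, were close to the 15.2% and 14.9% of all genes kept.

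Other zinc finger families gave a varied picture. All genes kept gave 15.2% and 14.9%, and the members 27.1% and 29.5%, at least 2-fold higher in vector and siRNA cells. Of 30 ZBTB genes kept, 9 (30.0%) were higher than control in each treatment and 0 lower. Of 13 ZSCAN genes 1 (7.69%) was higher in each, of 5 ZKSCAN genes 1 in each, and of 9 ZFP genes 3 (33.3%) in vector and 2 (22.2%) in siRNA cells. ZNF genes with a letter after the number, such as ZNF33A, were not members. Of the 14 kept, 9 (64.3%) were higher in vector and 8 (57.1%) in siRNA cells. Whether these shares differ was not tested.

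All 251 members could be placed in the order of protein-coding genes in RefSeq. Of these, 140 lay next to another ZNF gene. Among them 40 (28.6%) were at least 2-fold higher than control in vector and 44 (31.4%) in siRNA cells. Their median differences were 0.27 and 0.46. Of the 111 members with no ZNF neighbour, 28 (25.2%) and 30 (27.0%) were higher, with medians of -0.05 and 0.02. These shares were near the 27.1% and 29.5% of all members, beside 15.2% and 14.9% of all genes kept. The 140 include 89 members in runs of 5 or more ZNF genes. Of these 28 (31.5%) were higher in vector and 33 (37.1%) in siRNA cells, with medians of 0.49 and 0.60. In vector minus siRNA 1 of the 140 (0.714%) and 6 of the 111 (5.41%) were at least 2-fold higher in vector cells. Of all genes kept 1.73% were. Neighbours can share ancestry and probe sequence, so they are not independent, and whether these shares differ was not tested.

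Values varied between the runs. The counts in each run below stand beside 15.2% and 14.9% of all genes kept, at least 2-fold higher in vector and siRNA cells. Of the 251 members 27.1% and 29.5% were. The runs hold few members that are not independent, and whether they differ was not tested. The genes named from them below, other than those above, were chosen after their values were seen. In the run from ZNF605 to ZNF268 all 4 members were higher in both treatments, with median differences of 2.25 and 2.26. ZNF140 read 7.34, 8.49 and 8.44, ZNF26 read 4.90, 6.60 and 6.84, and ZNF84 and ZNF268 had larger gaps. In the run from ZNF302 to ZNF792 all 3 members were higher, ZNF30 reading 5.47, 6.72 and 6.94, with medians of 3.43 and 3.30. In the longer run from ZNF283 to ZNF180, 14 of 20 genes were members, and 6 were higher in vector and 8 in siRNA cells, with medians of 0.92 and 1.22. Within it ZNF180 stood highest at 5.48, 7.91 and 8.09, and ZNF155 was lowest in vector minus control at 5.18, 5.12 and 5.77.

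Of the 9 members from ZNF627 to ZNF791, 5 were higher in each treatment, with medians of 1.13 and 1.09, and of the 6 from ZNF577 to ZNF836, 3 were higher in each, with medians of 1.14 and 1.16.

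Some other runs had medians below control. So had all genes kept, at -0.18 for the vector and -0.17 for the siRNA, with 40.8% and 41.2% of genes above control. The 6 members from ZNF786 to ZNF746 included 0 that were 2-fold higher, with medians of -0.51 and -0.47. All 5 members from ZNF768 to ZNF689 and all 4 from ZNF524 to ZNF580 were below control in each treatment, with medians of -0.43 and -0.59 in the first and -0.56 and -0.71 in the second. In the short run from ZNF853 to ZNF12 the neighbours went apart, ZNF12 reading 7.10, 9.69 and 9.41 while ZNF853 and ZNF316 read below control on both other arrays.

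**Figure D4:**
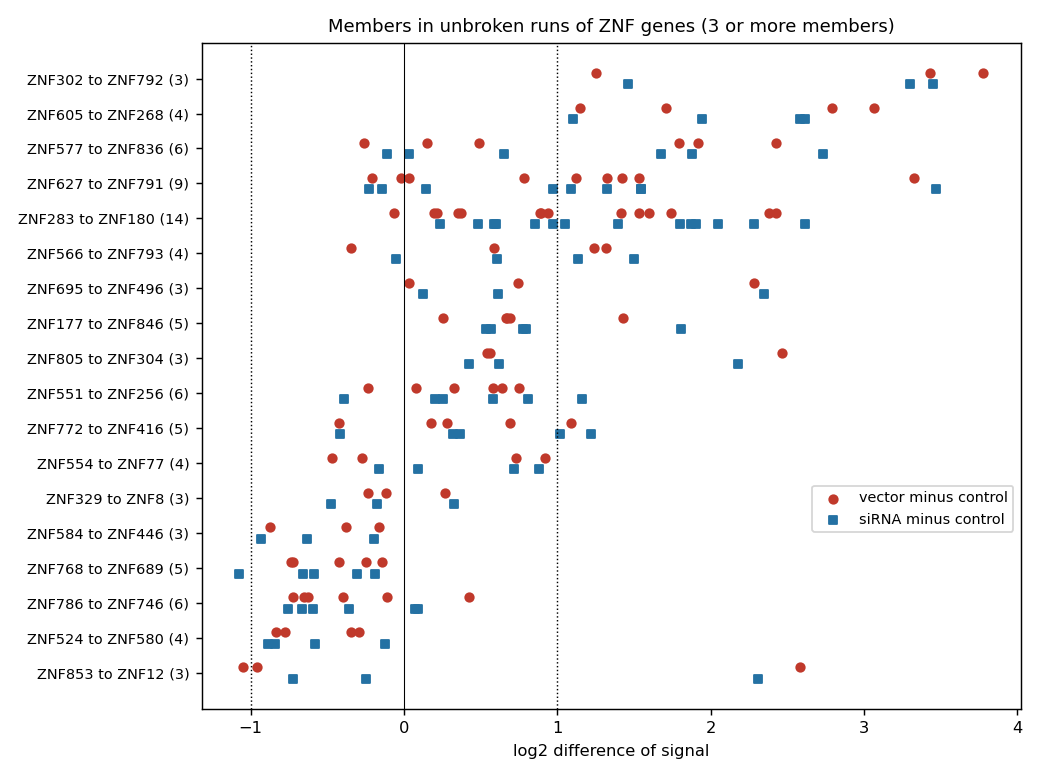
Log2 difference from control of each member in the 18 unbroken runs of ZNF genes that hold 3 or more members, with vector minus control as red circles and siRNA minus control as blue squares, and the number of members in brackets. Runs at the top, such as ZNF302 to ZNF792 and ZNF605 to ZNF268, have every member past the right dotted line at 2-fold, and ZNF786 to ZNF746 has none there.

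Promoter sequences were then described. RefSeq promoters, 300 bases that span the gene's start in GRCh38.p14, matched 216 of the 251 members. They were searched on both strands for ACTACAA, whose other strand is TTGTAGT, letters found in the element bound by ZNF143. It was present in 19 member promoters (8.80%), beside 347 of 9065 (3.83%) of genes kept and 806 of 27305 (2.95%) of all promoters of the same length. It lay in 8 of 63 (12.7%) matched members at least 2-fold higher in vector cells and in 11 of 151 (7.28%) not 2-fold apart, and in 8 of 68 (11.8%) and 11 of 145 (7.59%) for the siRNA cells. Among all matched genes kept and at least 2-fold higher, 48 of 1412 (3.40%) held it for the vector and 51 of 1387 (3.68%) for the siRNA. Whether these shares differ was not tested. The 4 promoters printed were chosen because they hold the letters and belong to members named above. Of the others in the same runs, ZNF26 and ZNF84 hold them 0 times. From ZNF283 to ZNF180 only ZNF180 and ZNF227 among matched members hold them. In the run from ZNF302 to ZNF792, ZNF181 and ZNF302 hold them 0 times. The capitals mark these letters in ZNF140 (chr12:133080673-133080972, plus strand), ZNF268 (chr12:133181245-133181544, plus strand), ZNF180 (chr19:44500473-44500772, minus strand) and ZNF451 (chr6:57089938-57090237, plus strand), each 5′ to 3′.
ZNF140: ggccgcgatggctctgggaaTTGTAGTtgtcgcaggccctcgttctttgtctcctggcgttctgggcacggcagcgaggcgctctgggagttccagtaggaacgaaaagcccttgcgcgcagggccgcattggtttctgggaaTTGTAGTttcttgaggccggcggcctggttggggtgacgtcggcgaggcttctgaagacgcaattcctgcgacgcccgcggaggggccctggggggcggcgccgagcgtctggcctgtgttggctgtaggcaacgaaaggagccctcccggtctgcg
ZNF268: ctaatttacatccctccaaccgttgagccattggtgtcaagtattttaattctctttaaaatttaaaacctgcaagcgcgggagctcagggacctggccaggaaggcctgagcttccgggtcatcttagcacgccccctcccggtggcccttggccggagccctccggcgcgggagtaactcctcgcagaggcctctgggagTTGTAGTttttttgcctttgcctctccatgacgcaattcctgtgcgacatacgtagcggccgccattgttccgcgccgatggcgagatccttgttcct
ZNF180: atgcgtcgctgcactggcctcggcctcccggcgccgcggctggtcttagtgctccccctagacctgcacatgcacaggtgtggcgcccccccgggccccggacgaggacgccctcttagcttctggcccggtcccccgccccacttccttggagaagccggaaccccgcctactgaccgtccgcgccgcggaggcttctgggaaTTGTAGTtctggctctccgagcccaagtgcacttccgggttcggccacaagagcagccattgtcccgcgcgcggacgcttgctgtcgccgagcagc
ZNF451: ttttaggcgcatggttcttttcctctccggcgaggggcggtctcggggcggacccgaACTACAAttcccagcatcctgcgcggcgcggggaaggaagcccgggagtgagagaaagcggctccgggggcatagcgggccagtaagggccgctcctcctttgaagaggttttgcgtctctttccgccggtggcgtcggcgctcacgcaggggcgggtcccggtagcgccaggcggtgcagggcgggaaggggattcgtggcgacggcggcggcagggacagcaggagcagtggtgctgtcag
ZNF140 holds the letters in 2 places and the other 3 promoters once each. A match is a description of the sequence, not of binding.

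The interferon-stimulated response element, searched on both strands as GAAA, any 2 bases and GAAA again, was found in 2 member promoters (0.926%), those of ZNF189 and ZNF207, beside 2.59% of genes kept and 3.65% of all promoters. Of the 7 members higher in vector than in siRNA cells, 4 had a promoter in the table (ZNF267, ZNF292, ZNF644 and ZNF92) and 0 of these held the element, which was in 25 of 151 (16.6%) matched genes of all those higher in that comparison. Member promoters had a median of 24 CpG dinucleotides, beside 26 in genes kept and 14 in all promoters.

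How far a difference held across probe sets could be read in the 185 members with 2 or more of them. Of the 68 members higher in vector cells than in control, 36 had another probe set above the median and in 31 of these (86.1%) another was also at least 2-fold higher, beside 821 of 1030 (79.7%) over all genes kept. For the siRNA cells it was 34 of 39 (87.2%) beside 787 of 1037 (75.9%), and for vector minus siRNA 5 of 5 beside 59 of 75 (78.7%). The pooled SD between probe sets, over 109 members, was 0.49, 0.47 and 0.19 in the same order of comparisons, against 0.36, 0.39 and 0.21 over 5982 genes.

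Some members hid a difference on another probe set. ZNF226 was level on its brightest probe set at 7.77, 7.98 and 8.0, while another read 4.57, 7.35 and 7.85. ZNF480 was likewise level at 8.14, 8.13 and 8.35, while another read 4.41, 7.56 and 6.70. ZNF800 was split the other way, with vector minus control differences of 1.98 to 2.71 on 3 probe sets and -0.72 and -0.64 on the other 2. For these 3 genes the count they fall in depends on the probe set used.

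**Figure D5:**
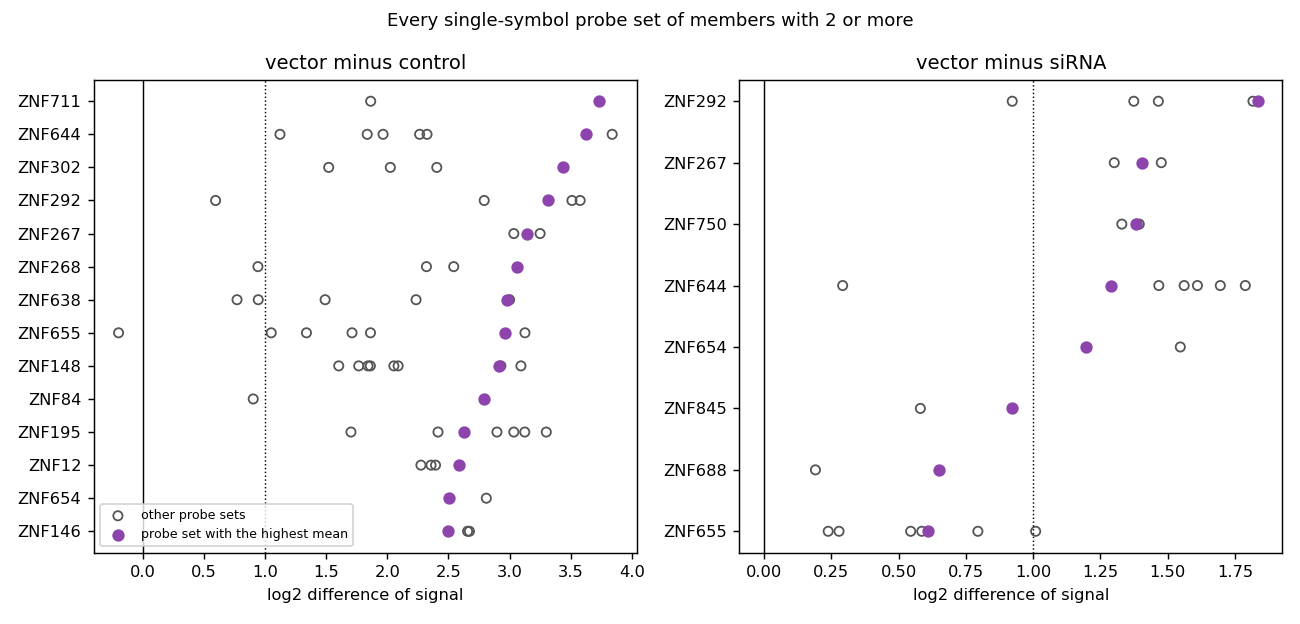
Log2 difference of every single-symbol probe set, for members with 2 or more and the largest differences in vector minus control (left) and vector minus siRNA (right), with the probe set used in purple and the others as open circles. ZNF750 and ZNF267 have tight points in the right panel, while ZNF711 and ZNF84 are spread in the left one.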

How the data were processed

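Total RNA was extracted with TRIZOL and labelled with biotin by a 3' IVT kit, per the labels' protocols. The deposited values are log2 signals of 49293 probe sets which, per the submitters' processing notes, come from RMA, and their range gave the log2 scale. Its version, the chip definition and the background step were not given in any source used here. RMA can compress differences near background, so differences of dim genes may be understated, which was not tested.

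Symbols came from the platform annotation, which gave 1 symbol to 44988 probe sets and several to 1832 and did not list 2473. Differences of 1 array against 1 array were counted past 2-fold, with no test. The steps were checked on simulated data. The members, gene lists, marker lists and the rule for named genes were chosen with earlier results of these data known. The rule took, for every pair of arrays, the 10 members furthest up and the 10 furthest down, the 5 highest and 5 lowest means, the members 2-fold apart between vector and siRNA, those with control in the middle, the role lists, the 5 genes on either side of the filter and the 5 with the most discordant probe sets. Cofactors were named past 2-fold, and TRIM28 was added after its values were seen. Alternatives were other folds and filters, the mean over probe sets, no _x_at or _s_at probe sets, repeated quantile normalization, cyclic loess (limma 3.58.1 in R 4.3.3, span 0.4, 3 iterations), centred differences and letter-suffixed names. A planned split by protein features was not done. Promoters and gene order came from RefSeq tables. Python 3.11.15, numpy 2.4.6, pandas 2.3.3 and matplotlib 3.10.9 were used.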

Additional observations from a re-analysis of the deposited data

How the results depend on the processing

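Repeated quantile normalization moved the median of all genes kept from -0.18 to -0.29 in vector minus control and from -0.17 to -0.24 in siRNA minus control, and cyclic loess moved it to -0.04 and -0.01. The split of all genes kept, 1662 higher and 224 lower in vector cells, became 1455 and 518 after repeated quantile normalization, and 1623 and 202 in siRNA cells became 1481 and 408. The members' median in vector minus control turned from 0.15 to -0.012 under that setting and stayed above that of all genes kept. The cause was not tested. Of the 68 members higher in vector cells 65 kept 2-fold under each scaling, and 56 also under each choice of probe sets that gave them a value. Some members, such as ZNF268, had no probe set above the filter once those ending in _x_at or _s_at were removed. These were judged on the other settings alone, here and for the siRNA cells. For siRNA cells 74 became 67 and 54, and for vector minus siRNA 7 became 6 and 6, ZNF721 dropping to 0.99 after repeated quantile normalization.

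By construction, counts fell at a 4-fold threshold, to 33 and 28 members higher than control and 0 lower in either treatment. Of the 10917 genes kept 572 and 411 were that much higher. In vector minus siRNA 0 members and 42 of all genes kept were. A 1.5-fold threshold gave 22 lower in vector and 27 in siRNA cells, and 12 higher and 5 lower in vector minus siRNA. A filter at the 75th percentile left 85 members, of which 24 and 28 were higher than control. Of the 85, 1 was lower in vector cells and 1 was higher in vector than in siRNA cells. The shares of all genes were not taken at 1.5-fold or under this filter, so these counts have no background beside them. A filter on the control array alone left 2 of the 7. The lower counts moved most: 2 in vector cells became 1 with the mean over probe sets, 4 after repeated quantile normalization and 0 after loess or centring. The 3 in siRNA cells became 1 with the mean over probe sets and 0 after centring. The cause was not tested. No named member past 2-fold turned sign under any setting that gave it a value. Without _x_at or _s_at probe sets 12 named members had none above the filter. With the mean over probe sets, 3 of the 26 named members past 2-fold in vector minus control fell under 2-fold. In siRNA minus control 7 of 30 did. No paired analysis was possible because each group has 1 array. Signal near background limits dim members, such as ZNF181 in control.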
